A study of Mus musculus with 14 samples.

Results

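The miR-193 and miR-365 clusters were followed across 14 mouse tissues through the 3 rows of the deposited table named mmu-miR-193, mmu-miR-193b and mmu-miR-365. These are 3 of 1046 miRNA names, and they were taken by name, with earlier results of these data known. The 4 star rows of the same hairpins (miR-193*, miR-193b*, miR-365-1* and miR-365-2*), which name the arm once taken as the less abundant one, were read beside them. The 14 tissues came from C57BL/6J mice, an inbred laboratory strain: kidney, liver, spleen, pancreas, oesophagus, stomach, small intestine, colon, brain, cerebellum, lung, heart, uterus and ovary. No genotype, treatment or age is given for any tissue. Each tissue was 1 library of RNA pooled from several animals, with the number of mice given as 5 where the harvest is described and as 10 where the pooling is. There is thus no spread between animals to set a difference against, no test between tissues was run, and every interval below is a 95% interval that covers counting error only. In whole-tissue RNA, fewer cells of a type and less RNA per cell cannot be told apart.

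A miRNA is cut from a hairpin and guides silencing proteins to messenger RNAs, chiefly by pairing through its seed. In mouse, the miR-193b and miR-365 cluster is known for its high level in brown fat, where it was reported to help precursors become brown fat cells and to hold back muscle genes, while a later knockout reported brown fat formation without it. The mature miR-193 and miR-193b share their seed, so they are held to reach largely the same messenger RNAs. Neither a fat depot nor a limb muscle is among the 14 tissues. Heart is cardiac muscle, and the wall of the mouse oesophagus holds striated muscle under a squamous lining.

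The genome carries the family as 2 clusters, each with a miR-193 type hairpin followed by a miR-365 type hairpin. In RefSeq on GRCm38.p6, the first lies on chromosome 11, plus strand, with Mir193a at chr11:79711969-79712034 and Mir365-2 at chr11:79726400-79726511, 14365 bases further on. No annotated gene overlaps these hairpins, and the nearest coding gene upstream is Rab11fip4, which ends 13946 bases before Mir193a. The second lies on chromosome 16, plus strand, with Mir193b at chr16:13449523-13449601 and Mir365-1 at chr16:13453840-13453926, 4238 bases further on. Both of these hairpins lie inside the antisense gene Gm15738 on the minus strand, without touching its exons in GENCODE M21, and the nearest coding gene upstream is Mrtfb, 31994 bases before Mir193b. The table's name miR-193 is tied to Mir193a by its RefSeq synonym.

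The 3 mature sequences, from RefSeq (GRCm38.p6), are shown because their likeness decides what the table can separate. Capitals mark the seed, bases 2 to 8.

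mmu-miR-193: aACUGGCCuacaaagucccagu

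mmu-miR-193b: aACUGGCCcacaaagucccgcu

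mmu-miR-365: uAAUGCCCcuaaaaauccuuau

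The first and second share 19 of 22 bases and all of the seed ACUGGCC. Counted from 1 at the 5′ end, with the base of miR-193 first, they differ by U9C, A20G and G21C. Both miR-365 hairpins give the same mature miR-365 with the seed AAUGCCC, so its reads cannot be assigned to a cluster.

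The star arms differ between the clusters and so show which hairpin a read came from, again with bases 2 to 8 in capitals.

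mmu-miR-193*: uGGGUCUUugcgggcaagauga

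mmu-miR-193b*: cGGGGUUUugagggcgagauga

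mmu-miR-365-2*: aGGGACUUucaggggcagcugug

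mmu-miR-365-1*: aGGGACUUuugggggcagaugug

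The miR-193* and miR-193b* sequences share 17 of 22 bases and differ by U1C, U5G, C6U, C11A and A16G, of which U5G and C6U fall in the seed. The miR-365-1* and miR-365-2* sequences share 20 of 23 bases and the seed GGGACUU, and differ by U10C, G11A and A19C with the base of miR-365-1* first. Counted together, the chromosome 11 rows are miR-193, miR-193* and miR-365-2*, and the chromosome 16 rows are miR-193b, miR-193b* and miR-365-1*. How the authors counted a read that fits several near-identical names is not given in the sources used here, so names that differ by 3 bases may share some reads.

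The counts behind the family were small. All 7 rows together held 2223 reads over the 14 libraries, of which 1112 were on the 3 named arms and 1111, or 50.0%, on the star arms. Library totals ran from 622132 reads in pancreas to 9341000 in small intestine. Levels are reads per 1000000 miRNA reads of the library (RPM). Where a row has 0 reads, a true value of up to 3 reads remains possible, or 4.82 RPM in pancreas, 2.64 RPM in cerebellum and 1.32 RPM in ovary. The smooth muscle miRNA miR-143 took 98.7% of the reads of the library labelled colon and 87.1% of those of ovary, which left 86545 and 292350 other reads. Markers of intestinal epithelium (miR-192, miR-194 and miR-215, summed, none at 0) stood at 78772 RPM in the library labelled uterus and at 25.2 RPM in the library labelled colon, against their label names. With miR-143 left out of the totals, these sums were 182500 and 1941 per 1000000, against 458770 in small intestine. The call counts, the counts of libraries by their main cluster or member, the ratios of the highest over the second library, tau, the list counts and the likeness of profiles were therefore also taken without the libraries labelled colon and uterus.

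Among the 3 members, miR-365 had the most reads, 632 in 12 libraries. Its level was 23.1 RPM (20.1 to 26.4) in kidney, from 213 reads, and 21.5 RPM (17.7 to 25.9) in oesophagus, from 113 reads. Stomach held 11.0 RPM (8.90 to 13.5), lung 9.09 RPM and brain 7.90 RPM. The kidney and oesophagus libraries stood above all others, and did not differ from each other beyond counting error, with a ratio of 1.07 (0.85 to 1.36). Small intestine followed at 4.60 RPM, liver at 4.41 RPM, the library labelled uterus at 3.45 RPM, spleen at 2.06 RPM and cerebellum at 1.76 RPM. Heart held 3 reads (0.433 RPM), the library labelled colon 1 read, and ovary and pancreas none. The median over the 14 libraries was 3.93 RPM. Only the steps of oesophagus over stomach (1.95-fold, 1.47 to 2.60) and brain over small intestine (1.72-fold, 1.09 to 2.69) had intervals without 1 among neighbours with reads in this order. Even in kidney miR-365 was a low-abundance name, the 165th of that library.

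Behind this order lies the scaling. With miR-143 left out of the totals, with median-of-ratios size factors, or with the 5 most abundant names left out, stomach became the highest library for miR-365. The ratio of kidney over stomach was 2.09 (1.63 to 2.70) by library total and 0.88, 0.91 and 0.76 under those 3 scalings. Oesophagus over stomach likewise came to 0.75, 0.99 and 0.89, and brain over small intestine to 0.85, 0.75 and 0.65. miR-143 held 70.2% of the stomach reads, 53.6% in small intestine, 29.6% in kidney, 22.9% in oesophagus and 6.32% in brain. In log2 units, median-of-ratios factors shifted every level within a library by between −1.75 in kidney and 4.21 in the library labelled colon, and leaving out miR-143 moved them by between 0.059 in pancreas and 6.27 in the library labelled colon. Which of kidney, oesophagus and stomach held the most miR-365 is therefore not settled by these libraries.

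**Figure D1:**
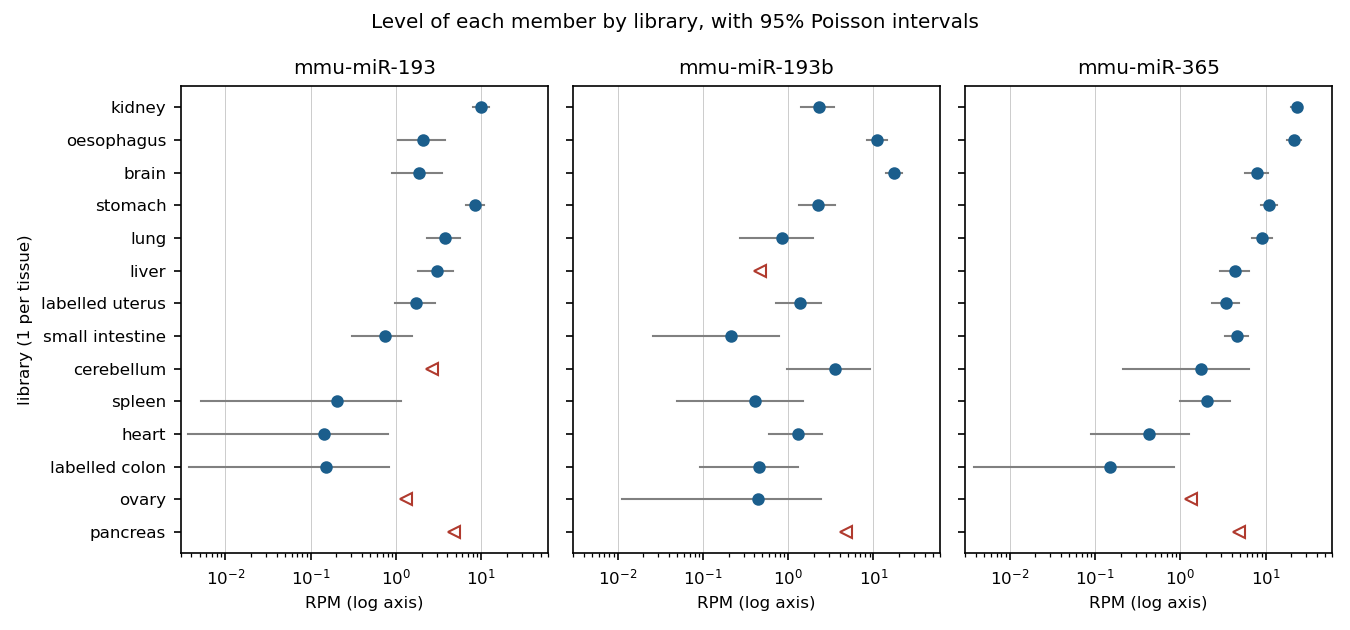
Level of miR-193, miR-193b and miR-365 in each of the 14 libraries, in RPM on a log axis. Points are levels, lines are 95% Poisson intervals, and open triangles mark libraries without a read, drawn at the level that 3 reads would give. miR-193b peaks in brain (17.5 RPM) and oesophagus (11.0 RPM), while miR-193 peaks in kidney (9.97 RPM) and stomach (8.53 RPM).

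The chromosome 11 member, miR-193, had 251 reads in 11 libraries. It reached 9.97 RPM (8.03 to 12.2) in kidney, from 92 reads, and 8.53 RPM (6.68 to 10.7) in stomach, from 72 reads. Lung held 3.70 RPM, liver 2.99 RPM, oesophagus 2.09 RPM, brain 1.88 RPM and the library labelled uterus 1.72 RPM. By library total, kidney and stomach stood clear of the rest and within counting error of each other, at a ratio of 1.17 (0.85 to 1.61). Kidney over liver was 3.33-fold (2.02 to 5.78) by library total, but 0.91 (0.55 to 1.58) by median-of-ratios, where liver came second. Small intestine held 7 reads (0.749 RPM), and spleen, heart and the library labelled colon 1 read each. Cerebellum, ovary and pancreas had none, and the median was 1.24 RPM. The step of stomach over lung, 2.30-fold (1.41 to 3.90), was the only one between neighbours with reads whose interval left out 1, and it was 3.01, 4.39 and 5.03 without miR-143, by median-of-ratios and without the 5 most abundant names. Under each of these 3 scalings stomach passed kidney, with kidney over stomach at 0.49, 0.51 and 0.42. Along the gut, stomach exceeded small intestine 11.4-fold (5.25 to 29.3) by library total, and the lowest value under another scaling was 9.37-fold (4.32 to 24.1).

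The chromosome 16 member, miR-193b, had 229 reads in 12 libraries and another order of tissues. Brain held 17.5 RPM (14.1 to 21.4), from 93 reads, and oesophagus 11.0 RPM (8.39 to 14.3), from 58 reads. Cerebellum had 4 reads (3.53 RPM), kidney 21 (2.27 RPM), stomach 19 (2.25 RPM), the library labelled uterus 12 (1.38 RPM) and heart 9 (1.30 RPM). Brain exceeded oesophagus 1.58-fold (1.13 to 2.24), and oesophagus exceeded cerebellum 3.13-fold (1.16 to 11.9). These were the only steps between neighbours whose intervals left out 1, and the first fell to 1.30 (0.93 to 1.84) without miR-143 in the totals and to 1.03 (0.73 to 1.45) without the 5 most abundant names. The second was 2.36 (0.87 to 8.95) by median-of-ratios. Between 1 and 5 reads were found in lung, spleen, small intestine, ovary and the library labelled colon, and the median was 1.07 RPM. Liver had no read of miR-193b in 6344776. Against a floor of 3 reads in liver, brain stood 37.0-fold higher and oesophagus 23.4-fold higher (12.5-fold and 7.52-fold by median-of-ratios). These folds leave out counting error in brain and oesophagus. The exact upper limit of liver over brain was 0.034, and 0.10 by median-of-ratios. Under the other 3 scalings the library labelled colon came first for miR-193b on the strength of 3 reads, with brain second.

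The contrast between these paralogs held under each scaling. Brain exceeded kidney 7.69-fold in miR-193b, a log2 ratio of 2.94 (2.25 to 3.70), with folds between 5.78 and 9.47 under the other scalings. For miR-193 the same ratio of brain over kidney was 0.19 (0.088 to 0.36). Oesophagus exceeded kidney 4.86-fold (2.90 to 8.42) in miR-193b, and was 0.21 (0.10 to 0.39) of kidney in miR-193. The members thus ran opposite ways between the same pairs of libraries, while miR-365, made by both clusters, was level between oesophagus and kidney at 0.93 (0.74 to 1.18).

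Seen against all names, the members were not unusually uneven. A level was called high where RPM + 1 was at least 4-fold above the median of the other 13 libraries. The rule called 6 of the 42 pairs of member and library (14.3%), against 16.0% of all pairs of the 418 names that reached 10 RPM somewhere, so the share was near the background. The called pairs were miR-193 in kidney and stomach, miR-193b in brain and oesophagus, and miR-365 in kidney and oesophagus. In the same libraries the rule called 55.0% of all names in brain, 28.5% in oesophagus, 19.9% in kidney and 12.2% in stomach. Leaving out the libraries labelled colon and uterus gave the same 6 pairs, and leaving out those labelled colon, ovary and pancreas lost both miR-193 pairs. These calls moved with the scaling. By median-of-ratios only miR-193 in stomach remained of the 6, and miR-193b in the library labelled colon was called beside it. Without miR-143 in the totals, miR-193 in kidney and stomach and miR-193b in brain remained, while miR-365 in stomach and both miR-193 and miR-193b in the library labelled colon were called in addition. No member was called low, against 9.04% of all pairs, since a low call needs a median of 10 RPM in the other libraries and no member had one. Of the members, miR-193b and miR-365 passed 10 RPM somewhere and miR-193 stayed just below it. The specificity index tau, from 0 for even to 1 for a single tissue, was 0.74 for miR-193b, 0.70 for miR-193 and 0.57 for miR-365, against a median of 0.64 over those names. Without the libraries labelled colon and uterus tau was 0.73, 0.69 and 0.54 in that order.

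**Figure D2:**
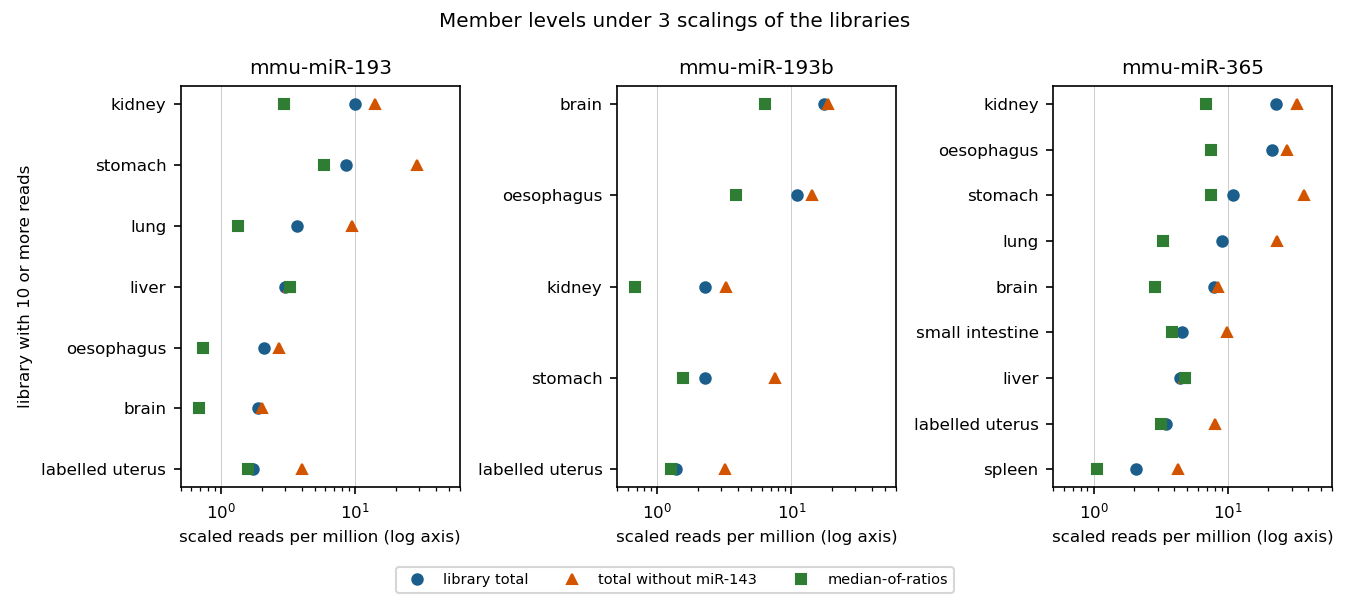
Levels of the 3 members in libraries with 10 or more of their reads, under 3 scalings, as reads per 1000000 of the library total, of the total without miR-143, or by median-of-ratios factors, on a log axis. For miR-193 the stomach value passes the kidney value under both other scalings, while brain and oesophagus keep the highest miR-193b values among the libraries drawn.

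Reads that can be assigned to a cluster compare the clusters within a library, where scaling plays no part. The chromosome 16 cluster gave 87.0% (80.2 to 92.1) of these locus-specific reads in brain, 120 of 138. It gave 83.3% (67.2 to 93.6) in cerebellum, 30 of 36, and 75.8% (57.7 to 88.9) in heart, 25 of 33. In oesophagus it gave 70.8% (63.3 to 77.5), 121 of 171. In these 4 libraries the exact binomial interval lay above 50%.

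The chromosome 11 cluster dominated in 6 libraries, where the interval lay below 50%. Liver was the extreme, with no read of the chromosome 16 cluster among 250, and an exact interval that reaches up to 1.5%. Kidney had 6.8% (5.0 to 9.0), 43 of 633, and lung 8.1% (3.3 to 16.1), 7 of 86. Stomach had 17.4% (11.6 to 24.6), 25 of 144, small intestine 11.8% (1.5 to 36.4), 2 of 17, and the library labelled uterus 27.9% (17.1 to 40.8), 17 of 61. Spleen (4 of 15), the library labelled colon (3 of 5) and ovary (1 of 2) were too shallow to place on either side, and pancreas had no read at all. Over all libraries the chromosome 16 cluster gave 25.0% of 1591 locus-specific reads.

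**Figure D3:**
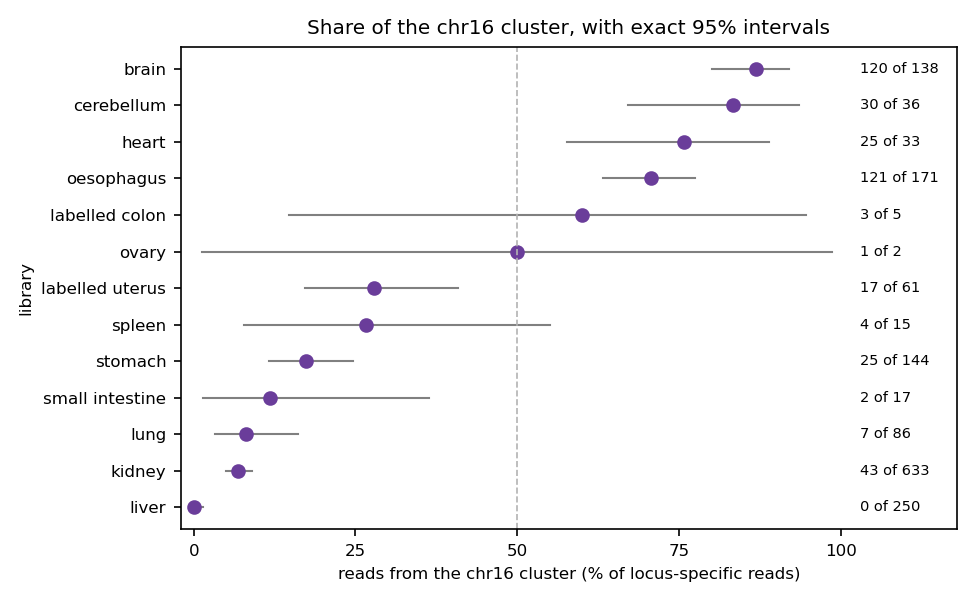
Share of the chromosome 16 cluster among locus-specific reads in the 13 libraries with any, with exact 95% binomial intervals and the reads printed at the right. Brain, cerebellum, heart and oesophagus lie above 50% with their whole interval, and liver, kidney, lung, small intestine, stomach and the library labelled uterus below it.

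The division was also read from the named arms and the star arms apart. Among miR-193 and miR-193b reads, miR-193b made up 90.3% (82.9 to 95.2) in brain, 84.1% (73.3 to 91.8) in oesophagus and 90.0% (55.5 to 99.7) in heart. It made up 20.9% (13.1 to 30.7) in stomach, 18.6% (11.9 to 27.0) in kidney, 18.5% (6.3 to 38.1) in lung and none of 19 reads in liver. Among star reads, the chromosome 16 cluster gave 77.1% (59.9 to 89.6) in brain and 81.2% (63.6 to 92.8) in cerebellum, and 4.2% (2.7 to 6.3) in kidney and none of 231 in liver. In oesophagus it gave 61.8% (51.6 to 71.2) of the star reads, and in heart 69.6% (47.1 to 86.8), an interval that holds 50%. The star share of the chromosome 16 cluster was below its named-arm share, with separate intervals, in oesophagus and in kidney. It also counts the miR-365 stars, while the named-arm share leaves out miR-365. From miR-193b* and miR-193* alone, the share in oesophagus was 93.6% (82.5 to 98.7), an interval that overlapped that of the named arms. In kidney it was 5.8% (2.9 to 10.1), still below the named arms with separate intervals.

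Oesophagus was the library in which the pair of hairpins in a cluster did not go together. Of its miR-193 type star reads, 44 were miR-193b* and 3 miR-193*, a chromosome 16 share of 93.6% (82.5 to 98.7). Of its miR-365 type star reads, 19 were miR-365-1* and 36 miR-365-2*, a share of 34.5% (22.2 to 48.6). These intervals did not overlap. In brain the same shares were 74.1% (53.7 to 88.9) and 87.5% (47.3 to 99.7), in kidney 5.8% (2.9 to 10.1) and 3.3% (1.7 to 5.9), and their intervals overlapped in both. Whether shared reads between the near-identical miR-365 stars play a part in oesophagus was not tested.

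The relation of miR-365 to the miR-193 pair also varied within libraries. It made up 82.7% (69.7 to 91.8) of the reads of the 3 members in small intestine, 66.7% (55.3 to 76.8) in lung, 65.3% (59.9 to 70.5) in kidney and 62.1% (54.6 to 69.2) in oesophagus. Stomach held 50.5% (43.1 to 58.0), and brain only 29.0% (21.7 to 37.1). Brain was the only library whose interval lay below 50%. In brain, then, miR-193b outnumbered miR-365, with 93 reads against 42.

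Star arms were abundant in this family. Over 196 hairpins with at least 100 reads on a name and its star, the star held a median of 1.11% of the reads and more than 50% in 15 hairpins. The miR-193 hairpin was among those 15, at 58.9% (54.8 to 62.8), and the miR-193b hairpin held 32.4% (27.5 to 37.7), the 20th place. Both miR-365 hairpins together had 642 star reads to 632 of miR-365.

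The star share moved widely between tissues. In liver miR-193* held 81.2% (72.2 to 88.3) of its hairpin's reads, in kidney 66.2% (60.2 to 71.8) and in lung 64.5% (51.3 to 76.3). In stomach it held 20.9% (13.1 to 30.7). The miR-365 stars followed in 3 of these, with 84.2% (78.0 to 89.2) in liver, 60.7% (56.4 to 64.8) in kidney and 26.2% (18.8 to 34.8) in stomach, while lung stood at 25.0% (15.5 to 36.6), below the share of the neighbouring miR-193 hairpin. Among all hairpins with 20 or more reads in both libraries, the share was higher with separate intervals in liver than in stomach for 11 of 114 (9.65%), and in kidney than in stomach for 9 of 132 (6.82%), with the miR-193 hairpin counted among them. The share was lower than in stomach, with separate intervals, for 23 of 114 in liver and 26 of 132 in kidney. Liver over kidney gave 19 of 114 higher (16.7%), the miR-193 hairpin among them, and 6 lower.

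**Figure D4:**
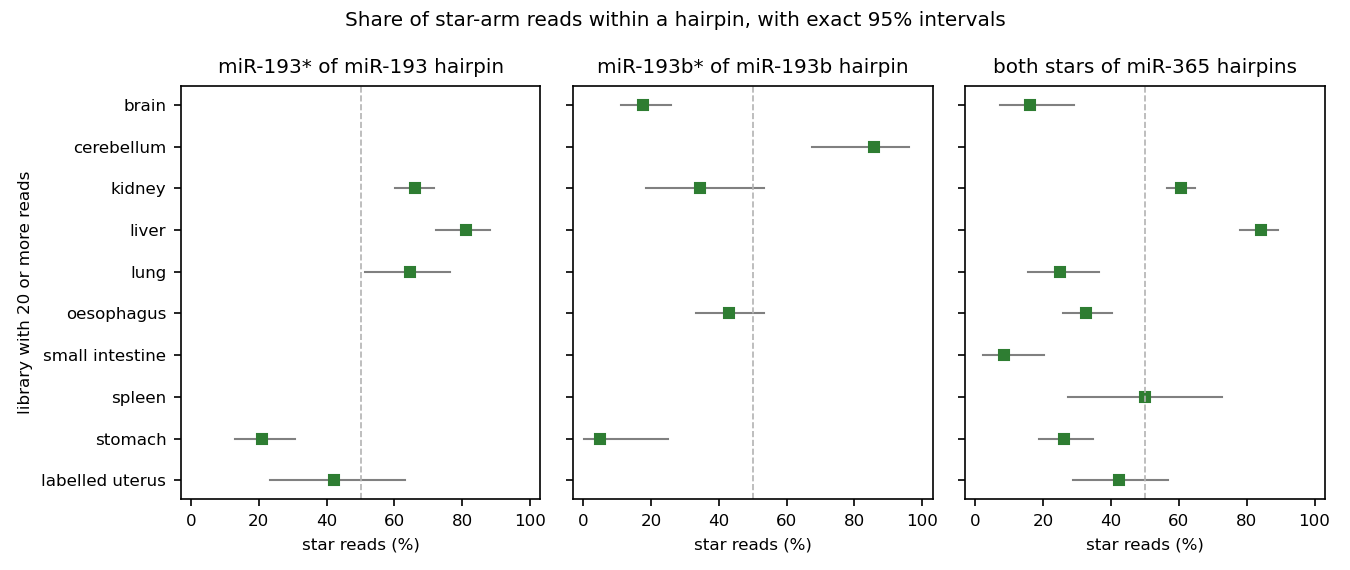
Share of star reads within the miR-193 hairpin, the miR-193b hairpin and both miR-365 hairpins, in libraries with 20 or more reads of the hairpin, with exact 95% binomial intervals. Liver lies at 81.2% for miR-193 and 84.2% for miR-365, stomach at 20.9% and 26.2%, and cerebellum at 85.7% for miR-193b, far from brain at 17.7%.

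The stars had their own order of tissues. miR-365-2* reached 34.4 RPM (30.8 to 38.4) in kidney, from 318 reads, and 23.5 RPM (19.9 to 27.6) in liver, from 149 reads, and oesophagus followed at 6.86 RPM. miR-193* reached 19.5 RPM (16.8 to 22.6) in kidney and 12.9 RPM (10.3 to 16.0) in liver, with lung at 6.74 RPM. In liver, both stars were far above the named arms, of which miR-365 had 28 reads and miR-193 had 19. Kidney exceeded liver 1.51-fold (1.16 to 1.98) in miR-193* and 1.47-fold (1.20 to 1.79) in miR-365-2* by library total, but these ratios were 0.41 and 0.40 by median-of-ratios. Liver over brain was 9.82-fold (4.56 to 25.2) for miR-193* and higher under median-of-ratios, at 29.1-fold. For the named arm miR-365, kidney over liver was 5.23-fold (3.52 to 8.06), and 1.43-fold (0.96 to 2.21) by median-of-ratios.

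The miR-193b hairpin showed its arm difference between the neural libraries. miR-193b* had 24 reads in cerebellum, 21.2 RPM (13.6 to 31.5), and 20 reads in brain, 3.76 RPM (2.30 to 5.81). The named miR-193b had 4 reads in cerebellum (3.53 RPM) and 93 in brain (17.5 RPM). The star share was 85.7% (67.3 to 96.0) in cerebellum and 17.7% (11.2 to 26.0) in brain, and 43.1% (33.4 to 53.3) in oesophagus. The 331 star names together held 1.97% of the reads in cerebellum against 1.01% in brain. Among the 128 hairpins with at least 20 reads in both libraries, the star share was higher in cerebellum than in brain with separate intervals in 27 (21.1%) and lower in 19. It was higher at all in 57, and its median over the hairpins was 0.68% in cerebellum and 0.90% in brain. miR-365-1* was the weakest of the 7 rows, with 59 reads and at most 3.62 RPM, in oesophagus. Over the 4 star rows, 9 of 56 pairs were called high (16.1%), again near the background of 16.0%. They were miR-193* in kidney, liver and lung, miR-365-2* in kidney, liver and oesophagus, and miR-193b* in brain, cerebellum and oesophagus, where the rule called 4.55% of all names in liver, 17.9% in lung and 46.9% in cerebellum.

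The 2 libraries richest in striated muscle miRNAs differed from each other in the members. Markers of striated muscle (miR-1, miR-133a, miR-206, miR-208a and miR-499, summed) stood at 322340 RPM in oesophagus, with miR-499 at 0, and at 320060 RPM in heart, with none at 0. Most of each sum was miR-1, at 279490 RPM in oesophagus and 318380 RPM in heart. The markers did not match singly, as miR-133a held 235.6 RPM in oesophagus and 1530 RPM in heart, and miR-499 held 101.9 RPM in heart. miR-365 was 49.7-fold higher (16.6 to 245) in oesophagus than in heart, with 113 reads against 3, and miR-193b 8.51-fold higher (4.19 to 19.5), with 58 reads against 9. By median-of-ratios these ratios were 14.2 (4.74 to 70.0) and 2.43 (1.20 to 5.59). Among the striated muscle miRNAs, miR-206, known from skeletal muscle, held 42616 RPM in oesophagus and 26.0 RPM in heart, while miR-208a-3p, known from heart muscle, held 0.19 RPM and 30.4 RPM. Markers of squamous epithelium (miR-203 and miR-205, summed, none at 0) were also at 20451 RPM in oesophagus and 64.6 RPM in heart. The part of either cell type in the members' levels was not tested. Of the 7 striated muscle names, the 4-fold rule called 4 high in oesophagus, where it called 28.5% of all names, and 6 in heart, where it called 4.55%.

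Neural markers (miR-9 and miR-124, summed, none at 0) stood at 67788 RPM in brain and 35465 RPM in cerebellum, against at most 320.5 RPM in any other library. The chromosome 16 cluster was the main source of locus-specific reads in both neural libraries, and also in heart and oesophagus, whose neural markers were at 28.8 and 320.5 RPM. The hepatocyte miRNA miR-122 stood at 437410 RPM in liver and at most 403.7 RPM elsewhere, and chromosome 11 cluster reads were in the majority in kidney, lung and stomach as well.

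The other miRNAs known for brown or beige fat were read from a list of 16 names. The calls on this list, as on the striated muscle names, are by library total and were not repeated under the other scalings. By median-of-ratios every kidney level shifts by −1.75 log2 units. Of the 8 known to promote it, 6 were called high in kidney (miR-203, miR-196a, miR-455, miR-30b, miR-30c and miR-32), 3 in oesophagus and 2 in brain, where the rule called 19.9%, 28.5% and 55.0% of all names. Their median log2 difference from the other libraries was 2.51 in kidney, against 0.93 over all names, and −1.28 in brain, against 2.28 over all names. In other libraries, 3 were called in small intestine (9.57% of all names), 2 in spleen (13.2%), 2 in the library labelled uterus (8.13%), and 1 each in liver (4.55%) and stomach (12.2%). miR-196a held 2062 RPM in kidney, miR-455 20.9 RPM and miR-32 112.0 RPM. Of the 8 known to restrain it, 2 were called high in kidney (miR-155 and miR-34a), 2 in oesophagus (miR-133a and miR-133b) and 1 in brain (miR-34a). Against the same backgrounds, the shares in kidney and oesophagus were near those of all names, and the share in brain was below. Heart had 3 (miR-133a, miR-133b and miR-155), against 4.55% of all names, and 2 without the libraries labelled colon and uterus, the only list count that changed without them. Cerebellum had 2 (miR-133b and miR-34a), lung 2 (miR-27a and miR-27b) and spleen 1 (miR-155), where the rule called 46.9%, 17.9% and 13.2% of all names. The other 7 libraries had none. miR-34a, known to act against browning, held 38.4 RPM in brain and 21.8 RPM in kidney. The fat names therefore did not share 1 profile. By library total, miR-378, which promotes brown fat in mouse, had its highest level in heart, at 356230 RPM. Cerebellum held 345120 RPM, kidney 300900 RPM, the library labelled uterus 208770 RPM, oesophagus 183090 RPM and stomach 147460 RPM. Leaving out miR-143 raises levels by 1.75 log2 units in stomach and by 0.35 in heart, so this order depends on the scaling.

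Likeness of profile was measured by Spearman's rho of RPM over the 14 libraries. The candidates were 386 names that reached 10 RPM in some library and had reads in at least 7 libraries. The family's own rows were kept whether or not they passed. All values share the same libraries, depths and totals, so they are given as a description. miR-193 and miR-365 were each other's closest name, with rho 0.91, and miR-193b stood apart from both, with 0.30 to miR-193 and 0.52 to miR-365. The closest names to miR-193b were its own cluster's stars, miR-365-1* at 0.91 and miR-193b* at 0.91, although these values were 0.47 and 0.50 without miR-143 in the totals. miR-193 was less close to its own star (0.71) and to miR-365-2* (0.75). Between miR-193 and miR-365 rho stayed between 0.82 and 0.88 under the other scalings.

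Outside the family, the names most like miR-193 were miR-455* (0.87), miR-664 (0.80), miR-130a (0.79), miR-203 (0.78) and the endothelial miR-126-3p (0.78). miR-455* was highest in stomach (69.5 RPM) and kidney (46.9 RPM), as miR-193 was in reverse order. The names most like miR-365 were miR-23b (0.87), miR-664 (0.86), miR-203 (0.85), miR-130a (0.85) and miR-24-2* (0.84), so that 3 of 5 were shared with miR-193. The names most like miR-193b were miR-708* (0.84), miR-149 (0.84), miR-99b* (0.83), miR-125b-5p (0.83) and miR-299 (0.82), none of them on the other lists. Each of these 5 had brain, cerebellum and oesophagus as its 3 highest libraries. miR-149, for example, held 409.8 RPM in cerebellum, 363.5 RPM in brain and 330.0 RPM in oesophagus. Without miR-143 in the totals, 2 of the 5 names stayed for miR-193, 3 for miR-365 and 0 for miR-193b. Without the libraries labelled colon and uterus, 3 of the 5 stayed for each member, and rho between miR-193 and miR-365 was 0.90.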

How the data were processed

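Small RNA from 14 tissues was sequenced as 1 library per tissue. Per the labels' protocols, total RNA was extracted with Trizol, pooled and made into standard Illumina libraries. The deposited values are whole-number read counts per miRNA name, with no scaling by the authors found in them. Not given in the sources used here are the aligner, miRNA release, genome build and treatment of reads with several matches.

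Here counts were divided by the library total (RPM). Exact Poisson intervals were used for levels, exact conditional binomial intervals for folds and Clopper-Pearson intervals for shares, all at 95%. A floor of 3 reads stood in for 0. Alternatives were other scalings, a pseudocount of 10 RPM, a fold of 2, a minimum of 100 reads in a ratio, another likeness measure and runs without doubtful libraries. The alternatives for cluster shares and for ratios between named libraries, and tau, list counts, ratios and likeness without the libraries labelled colon and uterus, were chosen after seeing the data. Median-of-ratios factors used the 162 names with reads in every library. The 3 members, their star rows, the names most like each member, and the fat, muscle and marker lists could be named. Members and lists were chosen with earlier results of these data known. The call rule and the intervals were tested on simulated data. The simulated names had a median of 10 RPM or more, above that of every member, so the rule was not tested at their level. The intervals were tested at larger counts than many of those given here. Python 3.11.15, pandas 2.3.3 and scipy 1.17.1 were used. Libraries were grouped by their tissue label alone, and no column was left out.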

Additional observations from a re-analysis of the deposited data

How the results depend on the processing

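No paired analysis was possible because each tissue has 1 library and no test was run. With main values in brackets, the log2 ratio of kidney over stomach for miR-193 (0.22) was −0.98 by median-of-ratios, −1.02 without miR-143 and −1.24 without the 5 most abundant names, and brain over oesophagus for miR-193b (0.66) was 0.037 in the last of these. The log2 ratio of kidney over stomach for miR-365 (1.07) turned to −0.14, −0.18 and −0.40, and kidney over liver turned by median-of-ratios to −1.27 for miR-193* (0.59) and −1.31 for miR-365-2* (0.55). Kidney over oesophagus for miR-365 (0.10) came to −0.13 by median-of-ratios, 0.23 without miR-143 and −0.23 without the 5 most abundant names. Apart from ratios of the highest over the second library, 13 of a chosen set of 16 ratios between named libraries kept their direction under these 3 scalings. Ratios given above but outside that set also turned. They were oesophagus over stomach and brain over small intestine for miR-365 under all 3 scalings, and kidney over liver for miR-193 by median-of-ratios. High calls (6) numbered 2 by median-of-ratios, 0 with a pseudocount of 10 RPM and 12 with a fold of 2, and low calls (0) numbered 7 without the 5 most abundant names. Libraries with more miR-193b than miR-193 (7 of 13) numbered 1 of 2, and those with mostly miR-365 (8 of 13) numbered 3 of 4, when at least 100 reads were required. Of the 5 names most like miR-193, 2 remained by Pearson's r, 2 by median-of-ratios, 2 without miR-143 and 3 without the 10 RPM filter. For miR-193b, 1, 1, 0 and 3 remained in that order. For miR-365, 3, 1 and 3 remained under the first 3 settings and 4 under the last. Without the libraries labelled colon and uterus, a choice made after seeing the data, 3 remained for each member. The causes were not tested. The number of libraries with mostly chromosome 16 reads (5 of 13) was 4 of 11 without the libraries labelled colon and uterus, 4 of 9 with at least 20 such reads, 4 from stars alone and 7 from miR-193b against miR-193 alone. Depth limits most of all the ovary, pancreas, cerebellum and colon-labelled libraries.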

Other observations

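Set against the reads other than miR-143, the 3 miR-193b reads of the library labelled colon came to 34.7 per 1000000 (7.15 to 101), and those of brain to 18.7 per 1000000 (15.1 to 22.9). The intervals overlapped, so a difference was not detectable at this depth.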
